A study of Mus musculus with 7 samples.

Results

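A set of 10 immediate early genes was followed through the pancreas of 7 mice, one cell class at a time: Fos, Fosb, Jun, Junb, Egr1, Atf3, Ier2, Ier3, Zfp36 and Dusp1. They were chosen by name, with earlier results of these data known, as the rows of the deposited single-cell count tables that carry these symbols. They make up 10 of the 33864 genes listed in at least one table. Each of the 10 has a row in all the tables and passed the filter on low counts in each of the 7 cell classes examined. Immediate early genes are transcribed within minutes of a stimulus from factors that are already in the cell, and their messages are short-lived. Fos, Fosb, Jun and Junb encode subunits of the AP-1 transcription factor, Atf3 a related basic leucine zipper factor of the stress response, and Egr1 a zinc finger transcription factor. Zfp36 (tristetraprolin) promotes the decay of AU-rich messages, Dusp1 is a phosphatase that inactivates MAP kinases, Ier3 is an early response gene linked to cell survival, and Ier2 is a nuclear early response protein. In the pancreas these genes are known to respond to injury and also to enzymatic dissociation of the tissue, which every sample here underwent.

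The cells came from wild-type mice (WT, 2 mice), from reprogrammable i4F mice (3 mice) and from wild-type mice given caerulein (2 mice). All were 2 months old. The i4F-B strain carries, within Pparg, the reprogramming factors Oct4, Sox2, Klf4 and c-Myc under doxycycline control, and the rtTA transactivator in Rosa26. It is heterozygous for both and can express the cassette in any tissue rather than in a chosen cell type. The i4F and WT mice drank 1 mg/ml doxycycline in sucrose for 7 days. The caerulein mice received 7 hourly injections of 100 µg/kg of this secretagogue, which causes acute pancreatitis, on each of 2 days, and no doxycycline is named for them, so that caerulein and WT mice differ in both agents. Per the paper's methods, caerulein mice were killed on a later day than that of the last injection, so the hours just after an injection were not sampled. Saline-injected mice were not analysed here. Every pancreas was digested in the same way with collagenase, dispase and trypsin in a heated dissociator, and no sample was prepared without dissociation, so levels before dissociation were not measured.

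The tables held 58473 cells, with 15469018 to 64784216 unique molecular identifiers (UMIs) per library, and any pair of libraries shared at most 0.41% of their cell barcodes. Values below are UMIs of a gene scaled to counts per 1e6 UMIs of the cell class in that mouse (CPM), given for the mice in the order of their numbers. A lower CPM in such a sum can come from fewer cells with the message or from fewer messages per cell. The rtTA row stood at 42.5, 48.3 and 46.7 CPM in the i4F mice, with 1 to 16 UMIs in each other library. A row named OSKM-downstream held 0, 1 and 0 UMIs in i4F and 0 in each other library, so it told no library apart. The Pou5f1 (Oct4) row, in which endogenous and cassette messages cannot be told apart, stood at 2.54, 8.34 and 0.19 CPM in i4F, at 0.95 and 0.15 CPM in WT and at 0.48 and 1.87 CPM in caerulein mice. Sox2 had 15, 40 and 0 UMIs in i4F and at most 1 in each other library. In these cassette genes i4F 3 lay within the WT range, whether it was induced was not tested, and in most of the 10 members it lay nearer to WT than i4F 1 and i4F 2 did. Its cells were also shallower, with a median of 592 genes per cell and 41.1% of cells under 500 genes, against 1543 and 1059 genes and 17.5% and 23.2% in i4F 1 and i4F 2. Cells under 500 genes made up 35.4% and 21.1% of the WT libraries and 12.6% and 16.7% of the caerulein libraries, and the median mitochondrial share was 1.70% and 1.04% in WT, 0.96%, 1.14% and 1.30% in i4F and 0.53% and 0.79% in caerulein. The part of cell quality in the results was not tested. Results are given with all 7 mice, and again without i4F 3. Leaving it out removes the i4F mouse most like WT, so the counts without it are the less cautious ones. The library names form 2 series: WT 1 and the i4F mice are in one, and WT 2 and the caerulein mice in the other.

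A marker was taken as detected with any UMI in the summed cells, a low bar that does not settle what a class is. By it, all 11 ductal, 9 stellate, 7 endothelial, 8 macrophage, 9 NK/T and 6 B lymphocyte markers were detected in each mouse examined. The caerulein B lymphocyte cluster was the exception. That cluster carried B lymphocyte markers at 1165 and 303 CPM, against 39596 and 59521 CPM in WT, and dendritic cell markers, which include the MHC class II gene H2-Ab1 that B lymphocytes also express, at 14265 and 14459 CPM, against 9107 and 5504 CPM in WT. It was left out of the B lymphocyte class and is not in the macrophage class, whose WT and i4F parts do hold clusters led by dendritic cell markers, and caerulein cells had no NK/T cluster. Acinar cells could be checked on 5 of 16 markers, since the others have no row in every table. Those 5 summed to 13593 and 14829 CPM in WT acinar cells, to 3167, 3439 and 9928 CPM in i4F, and to 5288 and 4162 CPM in caerulein. Markers of other classes were also counted. Macrophage markers summed to 33.9 and 53.2 CPM in WT endothelial cells, to 771, 620 and 170 CPM in i4F and to 6601 and 4694 CPM in caerulein. In stellate cells they summed to at most 36.0 CPM in WT, to 375, 289 and 180 CPM in i4F and to 1344 and 877 CPM in caerulein. Ductal markers in stellate cells summed to 268 and 92.6 CPM in WT, to 2447, 3868 and 520 CPM in i4F and to 639 and 786 CPM in caerulein, and the 9 stellate markers to 35547 and 32076 CPM in WT and to 16865, 12405 and 23926 CPM in i4F and 21153 and 24478 CPM in caerulein. Ductal markers summed in macrophages to 1180 and 319 CPM in WT, to 13054, 5400 and 1342 CPM in i4F and to 6475 and 8056 CPM in caerulein. The part of these UMIs in the results below was not tested.

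The promoters are shown first, because early genes are read out through short elements close to the start. The 250 bases before the transcription start are given for Fos, Zfp36, Dusp1 and Ier3, from RefSeq on GRCm38.p6, on the strand of the gene: Fos lies at chr12:85473640-85473889 (plus), Zfp36 at chr7:28379229-28379478 (minus), Dusp1 at chr17:26508473-26508722 (minus) and Ier3 at chr17:35821463-35821712 (plus). Fos and Zfp36 are shown as genes that were lower in most classes, Dusp1 as one that changed unevenly, and Ier3 as the one that went the other way in stellate cells. Capitals mark the cAMP response element (TGACGTCA) or its core (TGACGT), the TATA box (TATAAA) and the CArG box of serum response factor, on either strand.
Fos: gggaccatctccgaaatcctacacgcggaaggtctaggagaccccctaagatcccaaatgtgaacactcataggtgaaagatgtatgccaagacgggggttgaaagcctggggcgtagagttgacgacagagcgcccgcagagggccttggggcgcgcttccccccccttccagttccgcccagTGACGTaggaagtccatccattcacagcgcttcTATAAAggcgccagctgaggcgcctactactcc
Zfp36: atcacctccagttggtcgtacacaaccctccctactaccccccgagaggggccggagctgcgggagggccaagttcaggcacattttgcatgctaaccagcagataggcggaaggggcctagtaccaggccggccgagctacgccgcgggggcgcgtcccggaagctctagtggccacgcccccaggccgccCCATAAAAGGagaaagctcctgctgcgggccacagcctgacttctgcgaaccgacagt
Dusp1: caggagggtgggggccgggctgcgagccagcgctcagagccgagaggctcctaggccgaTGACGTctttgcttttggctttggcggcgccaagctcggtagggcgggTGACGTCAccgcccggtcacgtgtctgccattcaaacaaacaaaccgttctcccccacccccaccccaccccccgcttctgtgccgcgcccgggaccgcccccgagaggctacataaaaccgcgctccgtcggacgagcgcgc
Ier3: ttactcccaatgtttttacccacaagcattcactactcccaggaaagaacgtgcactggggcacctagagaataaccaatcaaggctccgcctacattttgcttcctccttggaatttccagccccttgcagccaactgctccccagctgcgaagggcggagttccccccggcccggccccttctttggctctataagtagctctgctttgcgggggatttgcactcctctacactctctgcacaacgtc

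The Fos window held a response element core 66 to 61 bases before the start and a TATA box 33 to 28 bases before it. Zfp36 held a CArG box 58 to 49 bases before the start. Dusp1 held a full cAMP response element 143 to 136 bases before the start, which its overlapping cores share, and a further core 191 to 186 bases before it. Ier3 held none of these motifs and, like 6 other members, a GC box (GGGCGG). Windows were at hand for 8 members, all but Egr1 and Ier2, whose motifs were not counted. Of these 8, 1 held the full element, 3 its core and 1 a TATA box. A CArG box was held by 1, an AP-1 site (TGANTCA) by 0 and a GC box by 7. Sequence further from the start was not searched, so a member without a match here may hold the motif elsewhere. Over all 32851 windows of this length the shares were 1.55% for the element, 6.47% for its core, 12.4% for TATA, 1.47% for CArG, 6.75% for AP-1 and 32.7% for the GC box. A match is a string of letters and was not tested as a bound site.

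The 10 genes together were more abundant in WT than in i4F 1, i4F 2 and both caerulein mice in each of the 5 classes in which all groups were compared. Summed over the members, stellate cells stood at 24854 and 29415 CPM in WT, at 5763, 6311 and 17742 CPM in i4F, and at 8911 and 9714 CPM in caerulein mice. Ductal cells stood at 30700 and 35780 CPM in WT, at 10068, 13494 and 32518 CPM in i4F, and at 10461 and 9443 CPM in caerulein. Endothelial cells stood at 24038 and 31008 CPM in WT, at 7653, 9001 and 27802 CPM in i4F, and at 12205 and 12976 CPM in caerulein. In ductal and endothelial cells i4F 3 thus lay within the WT range, and in stellate cells between WT and the others. Macrophages stood at 11332 and 16248 CPM in WT, at 6719, 6388 and 7972 CPM in i4F, and at 6419 and 7217 CPM in caerulein. Acinar cells, the digestive enzyme producers, had lower sums than ductal cells, with 4819 and 5976 CPM in WT, 2811, 2991 and 4627 CPM in i4F, and 4265 and 4045 CPM in caerulein. NK/T cells stood at 11298 and 12913 CPM in WT and at 4565, 6679 and 7636 CPM in i4F. The macrophage order was seen between clusters led by dendritic cell markers but not between the others, and these values are given with the macrophages. The i4F acinar cells fell into different clusters by mouse, with 583, 746 and 59 cells in Acinar 2 (summed level 2800, 2962 and 5648 CPM) and 11, 61 and 2071 in Acinar 1 (4307, 3968 and 4518 CPM). The part of this split in the acinar values was not tested. In macrophages, acinar and NK/T cells all the i4F mice lay below both WT mice, while in B lymphocytes (4053 and 7026 CPM in WT, 5137, 4247 and 6478 CPM in i4F) the groups overlapped.

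**Figure D1:**
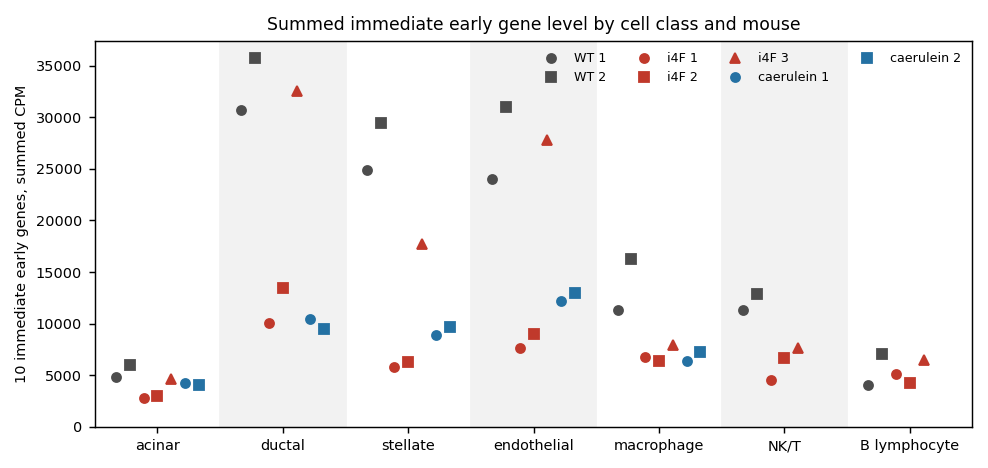
Summed level of the 10 immediate early genes (CPM of the class, linear axis from 0) in each cell class, with 1 point per mouse (WT grey, i4F red, caerulein blue; circle, square and triangle for mouse 1, 2 and 3). WT mice lie above i4F 1, i4F 2 and the caerulein mice in all the classes except B lymphocytes, and i4F 3 lies near WT in ductal (32518 CPM) and endothelial (27802 CPM) cells.

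A CPM is a share of the RNA counted, and the cells differed in how much RNA was counted. Per stellate cell, 4691 and 3641 UMIs of all genes were counted in WT, 9859, 8637 and 3157 in i4F and 7595 and 3681 in caerulein mice, of which the 10 members made up 117 and 107 UMIs per cell in WT, 56.8, 54.5 and 56.0 in i4F and 67.7 and 35.8 in caerulein. Counted per cell, stellate cells of all treated mice, i4F 3 included, thus held fewer member UMIs than those of WT. The same held for ductal cells, with 242 and 241 member UMIs per cell in WT, 61.7, 51.9 and 128 in i4F and 77.7 and 32.3 in caerulein. In acinar cells the order turned, with 4.34 and 5.33 member UMIs per cell in WT, 16.7, 16.6 and 6.27 in i4F and 16.3 and 8.95 in caerulein, where WT acinar cells had 899.7 and 891 UMIs of all genes and those of i4F had 5943, 5539 and 1355. Lower CPM in acinar cells is therefore a lower share of the RNA counted and not a lower count per cell. Depth per cell was not part of the tests below.

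Which of these differences exceeded the spread between mice was asked gene by gene and class by class, with edgeR's quasi-likelihood test and Benjamini-Hochberg adjustment over all genes of the class. With all 7 mice, i4F against WT gave 1 higher and 1 lower call among 70 member-by-class pairs, and 4.83% of all gene-by-class pairs were called. The NK/T and B lymphocyte fits held no caerulein mice. Caerulein against WT gave 1 higher and 2 lower calls among 50 pairs, with 6.86% of all pairs called. Neither share of members exceeded its background. Without i4F 3, i4F against WT gave 39 lower calls (55.7% of 70 pairs, against 12.7% of all gene-by-class pairs) and 4 higher calls (5.71%, against 13.2%). Without i4F 3, caerulein against WT gave 32 lower calls (64% of 50 pairs, against 13.3% of all pairs) and 1 higher call (2%, against 12.2%). Since the members were chosen with earlier results of these data known, these shares are not an independent test. Caerulein against WT does not contain i4F 3, and its fold changes hardly moved. What changed was the spread, which the fit estimates over all groups. With all mice and a term for the library name series, edgeR called 2 of 70 pairs in i4F, both lower, and 0 of 50 in caerulein, where 0.204% and 0.327% of all gene-by-class pairs were called. Within their own series, the summed levels of all i4F mice were below WT 1 in the 5 classes apart from ductal and endothelial cells of i4F 3, and those of both caerulein mice were below WT 2 in each.

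By class, and again without i4F 3, members were called lower than WT in i4F for 9 of 10 in stellate cells, where 47.8% of all genes were called either way, 7 of 10 in acinar cells (32.7% called), 7 of 10 in ductal cells (26.5%) and 7 of 10 in endothelial cells (14.3%). The count was 6 of 10 in macrophages (12.4%), 3 of 10 in NK/T cells (3.13%) and 0 of 10 in B lymphocytes (1.40%), where 3 members (Fosb, Egr1 and Atf3) were at an unadjusted p under 0.05 by edgeR. In caerulein mice members were called lower for 8 of 10 in stellate cells (39.7% of all genes called), 8 in ductal cells (32.2%), 6 in acinar cells (19.4%), 5 in endothelial cells (11.0%) and 5 in macrophages (16.4%). The acinar calls in caerulein include Junb (edgeR log2 change -0.80 ± 0.24, adjusted p = 0.046). Its CPM there overlapped, at 560 to 631 in WT and 470 to 561 in caerulein. Log2 changes follow TMM scaling, which put these acinar changes lower than CPM does. How many acinar calls rest on this scaling was not tested. The median log2 change over the 10 members in stellate cells was -2.06 in i4F and -1.52 in caerulein, where the medians over all genes tested were 0.02 and -0.03.

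**Figure D2:**
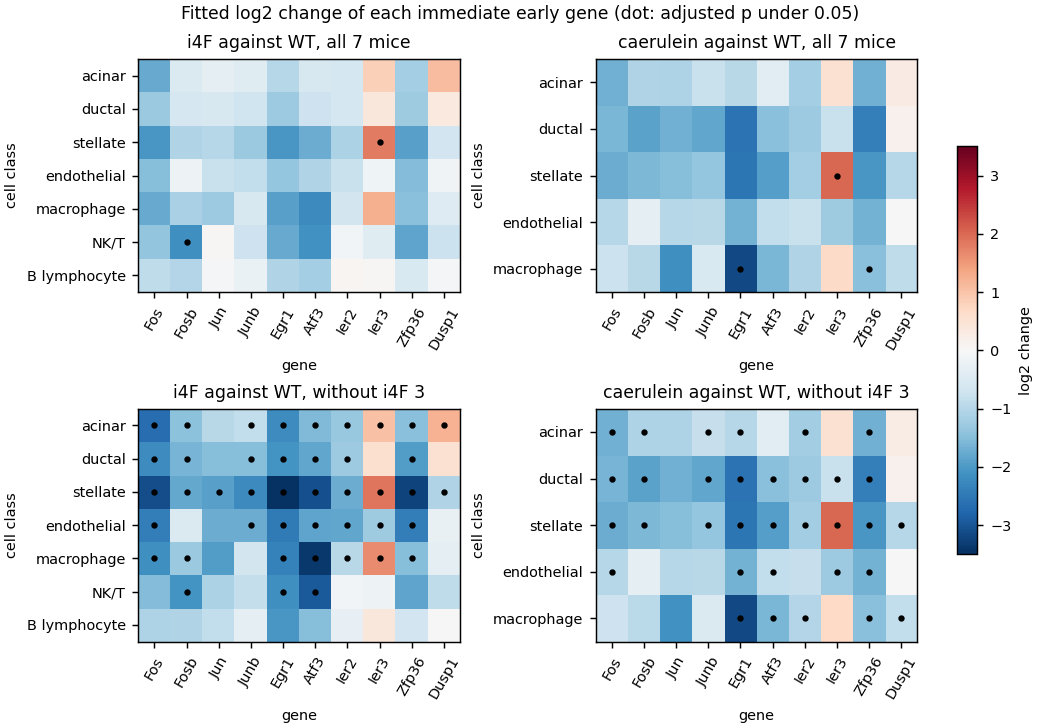
Log2 change of each member in each cell class against WT, for i4F and caerulein, with all 7 mice and without i4F 3; blue is lower than WT, red higher, and a dot marks an adjusted p under 0.05. Most cells of the map are blue in all panels, the dots number 2 and 3 with all mice and 43 and 33 without i4F 3, and the Ier3 column is red in the stellate row of every panel.

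Fos, the prototype of this gene class and an AP-1 subunit, stood in stellate cells at 7364 and 6193 CPM in WT, at 683, 752 and 2922 CPM in i4F and at 1574 and 2062 CPM in caerulein mice. The groups did not overlap between WT and either treatment, and i4F 3 was the highest of the i4F mice and above both caerulein mice. The log2 change in i4F was -2.04 ± 0.64 (SE, adjusted p = 0.06) with all mice and -3.10 ± 0.20 (adjusted p = 0.0001) without i4F 3. In caerulein it was -1.75 ± 0.72 (adjusted p = 0.12) and -1.75 ± 0.19 (adjusted p = 0.00096). Endothelial Fos followed the same order, with 4252 and 3584 CPM in WT, 753, 679 and 2402 CPM in i4F and 1716 and 1987 CPM in caerulein. Ductal Fos stood at 6181 and 6360 CPM in WT, at 1166, 1213 and 4483 CPM in i4F and at 1835 and 1813 CPM in caerulein. In acinar cells the level was lower throughout, at 1341 and 1483 CPM in WT, 311, 260 and 660 CPM in i4F and 630 and 702 CPM in caerulein. All WT mice were above all other mice in each of these classes. How many of all genes show such an order was not counted, here or for the members below. Without i4F 3 Fos was called lower in 5 of 7 classes in i4F and in 4 of 5 in caerulein.

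Atf3, the stress-responsive member of this family, had its highest levels in ductal cells, with 6044 and 4638 CPM in WT, 984, 1668 and 6120 CPM in i4F and 1669 and 1768 CPM in caerulein. Here i4F 3 was above both WT mice. In stellate cells Atf3 stood at 1370 and 1405 CPM in WT, at 132, 169 and 799 CPM in i4F and at 263 and 394 CPM in caerulein. In acinar cells Atf3 did not separate caerulein from WT (855 and 662 CPM in WT, 899 and 852 CPM in caerulein, 290, 384 and 840 CPM in i4F). Without i4F 3 Atf3 was called lower in 6 of 7 classes in i4F and in 4 of 5 in caerulein, acinar cells being the exception in the latter (log2 change -0.38 ± 0.25, adjusted p = 0.31, turning to 0.21 when library sizes were not TMM-scaled and all mice were kept).

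Fosb and Junb, the other subunits of this family, followed the order of Fos in stellate cells. Fosb stood at 1810 and 1274 CPM in WT, at 365, 434 and 1168 CPM in i4F and at 439 and 492 CPM in caerulein. Junb stood at 4477 and 6528 CPM in WT, at 1031, 1152 and 3793 CPM in i4F and at 1947 and 1941 CPM in caerulein. Neither gene overlapped between WT and the other mice. In NK/T cells, a class that pools NK and T cells, the fit held the WT and i4F mice only. Whether the mix of NK and T cells differed between mice was not tested. Fosb stood there at 531 and 261 CPM in WT and 103, 73 and 75 CPM in i4F. It was the 1 member called by edgeR with no mouse left out (log2 change -2.14 ± 0.34, adjusted p = 0.0232, where 1.51% of genes tested in NK/T cells were called). The call was lost without WT 1 (adjusted p = 0.15) and without i4F 2 (adjusted p = 0.14).

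Jun differed from the other AP-1 genes in that the WT mice themselves disagreed. Stellate Jun stood at 1707 CPM in WT 1 and 6998 CPM in WT 2, at 1024, 1182 and 3825 CPM in i4F and at 1601 and 1283 CPM in caerulein. Ductal Jun likewise stood at 2067 and 8219 CPM in WT, at 1554, 1725 and 6374 CPM in i4F and at 1938 and 940 CPM in caerulein. Both i4F 3 values lay between those of the WT mice. Without i4F 3 Jun was called lower in 1 of 7 classes in i4F, stellate cells (log2 change -1.90 ± 0.63, adjusted p = 0.0436), and in 0 of 5 in caerulein by edgeR, where 3 classes (ductal, stellate and macrophage) were at an unadjusted p under 0.05. With i4F 3 kept and WT 2 left out the stellate change was 0.52 in i4F and 0.02 in caerulein, though i4F 1, i4F 2 and both caerulein mice were below both WT mice in CPM.

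Without i4F 3, Egr1 fell further than any other member in i4F stellate cells and in caerulein macrophages, though both changes were smaller, and not called, with all 7 mice in activated stellate clusters only (-0.87) and in macrophages without the dendritic-marker clusters (-1.03). Stellate Egr1 stood at 3889 and 3005 CPM in WT, at 231, 340 and 1660 CPM in i4F and at 408 and 679 CPM in caerulein mice. Its log2 change was -2.02 ± 0.80 (adjusted p = 0.10) in i4F with all mice and -3.45 ± 0.29 (adjusted p = 0.00025) without i4F 3, and in caerulein it was -2.52 ± 0.93 (adjusted p = 0.0951) and -2.52 ± 0.28 (adjusted p = 0.0011). Ductal Egr1 stood at 3373 and 2469 CPM in WT, at 484, 718 and 2064 CPM in i4F and at 378 and 496 CPM in caerulein. Endothelial Egr1 stood at 2768 and 1928 CPM in WT, at 386, 433 and 1683 CPM in i4F and at 623 and 768 CPM in caerulein. WT mice were above all other mice in these classes, with i4F 3 always the nearest to them. Acinar Egr1 was less separated, at 434 and 385 CPM in WT, 114, 117 and 361 CPM in i4F and 271 and 356 CPM in caerulein. Without i4F 3 Egr1 was called lower in 6 of 7 classes in i4F and in 5 of 5 in caerulein.

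**Figure D3:**
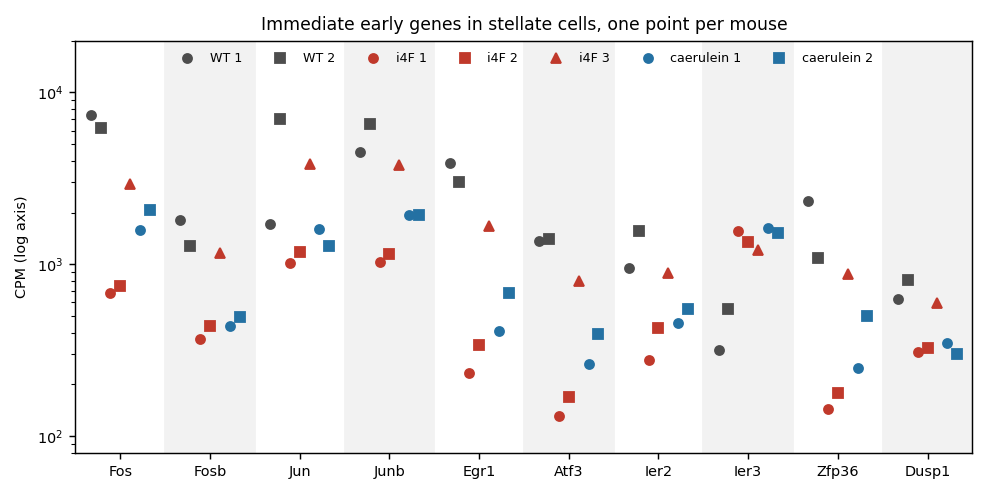
Level of each of the 10 genes in stellate cells (CPM of the class, log axis), 1 point per mouse with the colours and shapes of the sum by class. In 8 of the genes both WT mice are above every other mouse, in Jun WT 2 (6998 CPM) alone is, and in Ier3 both WT mice (318 and 546 CPM) are below every other mouse. The share of all genes that separate the mice in these ways was not counted.

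Ier3 was the member called higher than WT with all 7 mice, in stellate cells. There it stood at 318 and 546 CPM in WT, at 1568, 1355 and 1216 CPM in i4F and at 1624 and 1521 CPM in caerulein mice. All treated mice, i4F 3 included, were above both WT mice. Ier3 in stellate cells rose by 1.81 ± 0.33 on the log2 scale in i4F (adjusted p = 0.0217) and by 2.00 ± 0.35 in caerulein (adjusted p = 0.0194) with all 7 mice, where 20.6% and 17.1% of genes tested in stellate cells were called. Leaving out any 1 mouse other than i4F 3 kept the direction in i4F (log2 change 1.41 to 2.39) but took the adjusted p to 0.058 to 0.131. In caerulein the call was lost without WT 1, WT 2, caerulein 1 or caerulein 2, with the adjusted p between 0.0548 and 0.129. With a term for the library name series the changes were 2.36 in i4F (adjusted p = 0.0645) and 1.60 in caerulein (adjusted p = 0.0947).

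The order of the groups in Ier3 was not alike in other classes, and classes in which it went opposite ways were not tested against each other. The difference tested was between acinar cells and macrophages, where Ier3 changed in the same direction. It was not called by edgeR (-0.34 ± 0.45 in i4F, adjusted p = 0.71). In macrophages Ier3 stood at 736 and 894 CPM in WT, at 2287, 2357 and 733 CPM in i4F and at 1192 and 1333 CPM in caerulein. In acinar cells it stood at 192 and 131 CPM in WT, at 486, 354 and 170 CPM in i4F and at 378 and 318 CPM in caerulein. In both classes i4F 1, i4F 2 and the caerulein mice were above WT while i4F 3 was within or at the lower edge of the WT range. Endothelial Ier3 stood at 4145 and 6319 CPM in WT, at 1756, 2635 and 8885 CPM in i4F and at 2135 and 2009 CPM in caerulein, so that i4F 3 was the highest of all mice and the others were below WT. Ductal Ier3 stood at 2494 and 2441 CPM in WT, at 2480, 3899 and 2376 CPM in i4F and at 1356 and 1203 CPM in caerulein. Without i4F 3, Ier3 was called higher in i4F in 3 of 7 classes (acinar, stellate and macrophage) and lower in endothelial cells. In caerulein it was called higher in stellate cells and lower in ductal and endothelial cells. Summed over all cells it passed the test in neither group (log2 change 0.34 in i4F and 0.05 in caerulein, without i4F 3).

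**Figure D4:**
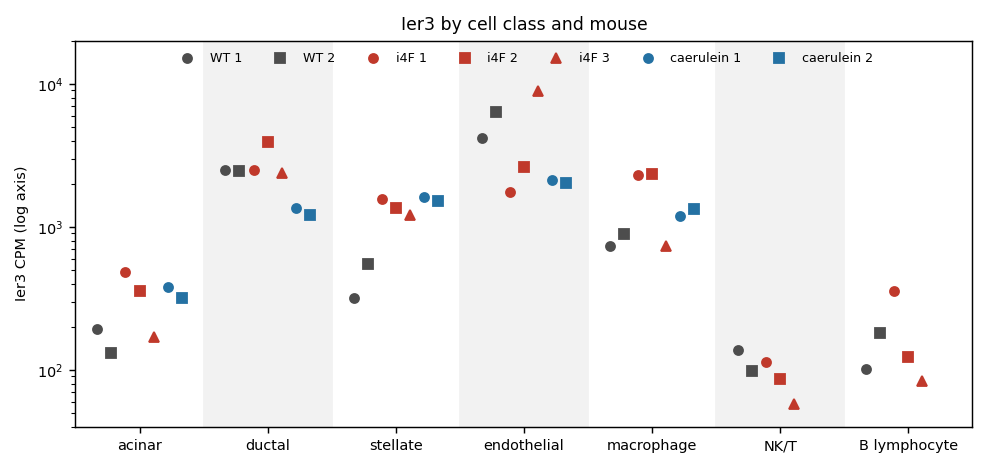
Ier3 level (CPM of the class, log axis) in each cell class, 1 point per mouse with the same colours and shapes. In stellate cells the treated mice (1216 to 1624 CPM) lie above WT, and in endothelial cells i4F 1, i4F 2 and the caerulein mice (1756 to 2635 CPM) lie below WT.

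Within stellate cells Ier2, the nuclear early response gene, was higher in both WT mice than in every other mouse, unlike Ier3. Its stellate levels were 955 and 1563 CPM in WT, 278, 424 and 893 CPM in i4F and 456 and 546 CPM in caerulein. Without i4F 3 it was called lower in 5 of 7 classes in i4F and in 4 of 5 in caerulein.

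The negative regulators parted. Zfp36, which shortens the life of cytokine and early messages, stood in stellate cells at 2332 and 1093 CPM in WT, at 143, 177 and 873 CPM in i4F and at 248 and 498 CPM in caerulein. Ductal Zfp36 stood at 2424 and 1006 CPM in WT, at 357, 403 and 1154 CPM in i4F and at 233 and 344 CPM in caerulein, and endothelial Zfp36 at 3029 and 1470 CPM in WT, at 352, 449 and 1341 CPM in i4F and at 530 and 809 CPM in caerulein. In contrast to Jun, WT 1 was here the higher WT mouse. Without i4F 3 Zfp36 was called lower in 5 of 7 classes in i4F and in 5 of 5 in caerulein. Dusp1, the MAP kinase phosphatase, moved least of the members in stellate cells when quiescent and activated clusters were both kept. Stellate Dusp1 stood at 632 and 811 CPM in WT, 309, 325 and 594 CPM in i4F and 351 and 299 CPM in caerulein. With activated clusters only and all 7 mice, Ier2 moved less than Dusp1. The log2 changes there were -0.14 for Ier2 and -0.37 for Dusp1 in i4F, and -0.24 and -0.71 in caerulein. Acinar Dusp1 was higher in i4F 1 and i4F 2, at 172 and 174 CPM, than in WT, at 29 and 86 CPM, with 80 CPM in i4F 3 and 115 and 93 CPM in caerulein. Without i4F 3 Dusp1 was called lower in stellate cells and higher in acinar cells in i4F, and lower in stellate cells and macrophages in caerulein. The summed ductal markers in these acinar cells were 2792 and 1897 CPM in WT, 12346, 9867 and 4165 CPM in i4F and 13908 and 15789 CPM in caerulein. They exceeded the acinar markers that could be checked in i4F 1, i4F 2 and both caerulein mice, but not in WT or i4F 3. The lists differ in length, so these sums are not on one scale. The part of ductal markers in the acinar values was not tested.

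Macrophages gave the remaining calls with all 7 mice. Egr1 stood there at 805 and 1132 CPM in WT, at 159, 180 and 405 CPM in i4F and at 98 and 110 CPM in caerulein, and its log2 change in caerulein was -3.17 ± 0.47 (adjusted p = 0.0328, where 5.66% of genes tested in macrophages were called). Zfp36 stood at 2017 and 1344 CPM in WT, at 604, 479 and 622 CPM in i4F and at 480 and 705 CPM in caerulein (log2 change in caerulein -1.46 ± 0.29, adjusted p = 0.041). No mouse of another group reached either WT mouse in these genes. Leaving out WT 1, WT 2, caerulein 1, caerulein 2 or i4F 1 ended the Egr1 call (adjusted p 0.0515 to 0.236), and leaving out any mouse but i4F 3 ended the Zfp36 call (adjusted p 0.055 to 0.257).

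The macrophage class did not hold the same cells in each group. All 6 dendritic cell markers had a UMI in each mouse but caerulein 2, where Zbtb46 and Cd209a were at 0, and they summed to 23736 and 18889 CPM in WT, to 1369, 433 and 12625 CPM in i4F and to 94 and 88 CPM in caerulein. Neutrophil markers summed to 734 and 85 CPM in WT, to 1673, 5761 and 4136 CPM in i4F and to 632 and 469 CPM in caerulein. The 10 genes summed to 14630 and 20265 CPM in the WT cluster Macrophages 1 but to 8823 and 7632 CPM in WT Macrophages 2. The latter lay among the i4F cluster Macrophages 1 (6814, 6446 and 9860 CPM) and the 3 caerulein clusters (6394 to 10200 CPM), so that the groups overlapped in the other macrophage clusters. Between the clusters led by dendritic cell markers they did not, since i4F Macrophages 3 summed to 4548, 5417 and 7172 CPM (Egr1 at 97.5, 146 and 293 CPM), below WT Macrophages 1 in each mouse. The caerulein cluster named B lymphocytes, which is outside the class, carried 14265 and 14459 CPM of dendritic cell markers and summed to 6268 and 7274 CPM (Egr1 at 94.2 and 132 CPM), also below. These cluster values were not tested, and clusters were named in each group apart. Egr1 stood at 1526 and 1563 CPM in the WT cluster Macrophages 1 and at 257 and 209 CPM in WT Macrophages 2. When WT Macrophages 1 and i4F Macrophages 3, the clusters led by dendritic cell markers, were left out, which kept 59 and 96 WT macrophages, Egr1 and Zfp36 were no longer called in caerulein (log2 changes -1.03 ± 0.53 and -0.86 ± 0.38, adjusted p = 0.22 and 0.16). Fos in caerulein went from -0.75 ± 0.39 to 0.02 ± 0.37 and Egr1 in i4F from -1.89 ± 0.40 to 0.57 ± 0.49, and no member was called lower in either group. The median change over all genes was 0.15 in i4F and 0.14 in caerulein in that fit. Ier3 rose without these clusters, by 2.87 ± 0.36 on the log2 scale in i4F (adjusted p = 0.0011, 12.4% of genes called) and by 2.12 ± 0.36 in caerulein (adjusted p = 0.0041, 15.5% called).

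Stellate cells likewise held quiescent clusters in WT, which had 114 and 161 cells in its activated cluster, and activated clusters alone in the other groups. In WT the summed level of the 10 genes was alike in activated (24874 and 29356 CPM) and in the first quiescent cluster (25952 and 31937 CPM), and a little lower in the second (21747 and 21230 CPM). Single members were not alike, with Egr1 at 1919 and 1502 CPM in the activated and at 4190 and 3406 CPM in the first quiescent cluster, and Atf3 at 4074 and 3422 CPM against 1002 and 1240 CPM. With activated clusters only and all 7 mice, Ier3 rose by 1.66 ± 0.23 in i4F (adjusted p = 0.0037, 21.3% of genes called) and by 1.85 ± 0.25 in caerulein (adjusted p = 0.003, 21.5% called). Atf3 fell by 3.03 ± 0.75 (adjusted p = 0.028) and by 3.22 ± 0.88 (adjusted p = 0.038), and no other member was called. Egr1 changed from -2.02 ± 0.80 to -0.87 ± 0.78 in i4F and from -2.52 ± 0.93 to -1.37 ± 0.88 in caerulein, and Ier2 from -1.10 ± 0.50 to -0.14 ± 0.53 and from -1.20 ± 0.57 to -0.24 ± 0.59. The median change over all genes in that fit was 0.28 in i4F and 0.23 in caerulein. Within i4F the main activated cluster stood at 5653, 6135 and 9117 CPM and the smaller second one at 11625, 13557 and 20623 CPM. That second cluster held 144 and 126 stellate cells of i4F 1 and i4F 2 but 1167 of i4F 3, while the main one held 4249, 2555 and 113.

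The direct comparison of i4F with caerulein asked whether reprogramming and pancreatitis differed from each other in these genes. With all 7 mice edgeR called 0 of 50 pairs (0.654% of all gene-by-class pairs were called), 4 pairs were at an unadjusted p under 0.05, and DESeq2 called 2. Without i4F 3, 8 pairs were lower in i4F than in caerulein (16%, against 4.52% of all pairs) and 2 were higher (4%, against 5.66%). Fos accounted for 4 of the lower calls, in acinar, stellate, endothelial and macrophage classes (stellate log2 difference -1.35 ± 0.18, adjusted p = 0.0097, with all mice -0.29 ± 0.64). Atf3 accounted for 3, its macrophage levels being 193, 186 and 952 CPM in i4F and 594 and 788 CPM in caerulein. The Atf3 difference there was -1.78 ± 0.23 (adjusted p = 0.0086) without i4F 3. Egr1 was lower in acinar cells, and Ier3 was higher in i4F in ductal cells (1.34 ± 0.24, adjusted p = 0.0274) and macrophages (0.96 ± 0.22, adjusted p = 0.0351). All i4F libraries belong to one library name series and all caerulein libraries to the other, so the series differs with the treatment in this comparison. With a term for the series, which the WT mice allow, edgeR called 0 of 50 pairs, but only 1 of all 57801 gene-by-class pairs (0.00173%), so this count carries no information on the members.

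Whether the change differed between acinar cells and macrophages was tested by the difference of the 2 changes over the same mice. With all 7 mice 1 of 20 differences was called, Egr1 in caerulein, where the change in acinar cells exceeded that in macrophages by 2.13 ± 0.46 on the log2 scale (adjusted p = 0.0225) in a joint fit of both classes. The separate fits of each class gave changes of -0.98 and -3.17. The background was 6.68% of genes for caerulein and 0.397% for i4F. Without the dendritic-marker clusters this difference was 0.04 ± 0.40 (adjusted p = 0.997).

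In single cells, how many cells held a message and how many members a cell held were both counted. Each cell was thinned to 1000 UMIs to set depths equal, which kept 1063 to 4079 stellate cells per mouse. A Fos UMI was then found in 91.1% and 83.6% of WT stellate cells, in 37.9%, 43.1% and 66.9% of i4F cells and in 57.6% and 69.7% of caerulein cells (exact binomial 95% intervals within 3 percentage points, which cover counting error only). Without thinning the shares were 93.7% and 90.8%, 77.1%, 77.8% and 77.7%, and 86.1% and 87.0%. For Ier3 the order was inverted, with 19.5% and 29.0% of thinned WT stellate cells, 65.4%, 57.6% and 40.5% of i4F and 59.4% and 59.5% of caerulein cells. Unthinned, Ier3 was found in 43.1% and 52.9% of WT, in 90.5%, 85.7% and 55.8% of i4F and in 87.8% and 78.1% of caerulein stellate cells. In NK/T cells at the same depth Ier3 was found in 4.55% to 7.59% of cells, a class set beside it for comparison. Whether those UMIs were free RNA was not tested, and caerulein mice had no NK/T cluster. At least 6 members were held by 71.7% and 74.1% of thinned WT stellate cells, by 10.7%, 15.8% and 60.6% of i4F and by 24.7% and 35.8% of caerulein cells. Without thinning this share was 87.7% and 88.3% in WT, 83.9%, 83.6% and 78.4% in i4F and 90.2% and 81.0% in caerulein, and caerulein overlapped WT. In the thinned cells i4F 3 lay close to WT for the count of members and between the groups for Ier3.

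A further 32 early response genes, not members, were counted in the same way. Without i4F 3, 63 of 200 pairs were lower and 17 higher in i4F (31.5% and 8.5%), and 51 of 154 were lower and 10 higher in caerulein (33.1% and 6.49%). Of all gene-by-class pairs, 12.7% were lower and 13.2% higher in i4F and 13.3% and 12.2% in caerulein. With all 7 mice 5 of 204 pairs were called in i4F, all lower (2.45%, under the 4.83% of all pairs called), and 10 of 155 were lower and 2 higher in caerulein (6.45% and 1.29%, where 6.86% of all pairs were called either way). Cyr61, a matricellular protein, was called lower in endothelial cells in both groups with all mice. It stood there at 731 and 579 CPM in WT, at 129, 150 and 212 CPM in i4F and at 184 and 267 CPM in caerulein, i4F 3 included. Rhob, a small GTPase, was called lower in i4F stellate cells with all mice (211 and 219 CPM in WT, 63.5, 63.1 and 106 CPM in i4F, 82.6 and 121 CPM in caerulein). Dusp6, an ERK phosphatase, was called lower there in both groups. Without i4F 3, Btg2, an antiproliferative early gene, was called lower in 5 of 7 classes in i4F and in 4 of 5 in caerulein, and stood in stellate cells at 1709 and 1161 CPM in WT, 321, 399 and 885 CPM in i4F and 653 and 821 CPM in caerulein. Klf6, a zinc finger factor, was called lower in 5 of 7 classes in i4F, and Zfp36l1 in 4 of 5 in caerulein. Cyr61 was called lower in 4 of 5 classes in both groups. Gadd45b, Gadd45g, Klf2 and Ppp1r15a were called lower in 4 of 7 classes in i4F, with stellate log2 changes of -2.10, -3.31, -3.09 and -2.34, and Gadd45g, Ppp1r15a and Rhob in 3 of 5 in caerulein, with -0.79, -1.32 and -0.94. Fosl1, an AP-1 subunit induced later than Fos, went against this order, at 13.1 and 33.1 CPM in WT stellate cells, 48.2, 60.9 and 60.4 CPM in i4F and 34.8 and 24.9 CPM in caerulein. It was called higher in i4F in 4 of the 5 classes tested without i4F 3, but not with all mice (stellate adjusted p = 0.0597).

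Heat-shock and other chaperone genes, some of which dissociation can also induce, were counted beside the members. Of 14 such genes, 24 of 94 pairs were lower and 6 higher in i4F without i4F 3 (25.5% and 6.38%), and 18 of 70 were lower and 4 higher in caerulein (25.7% and 5.71%), beside 12.7% lower and 13.2% higher of all gene-by-class pairs in i4F and 13.3% and 12.2% in caerulein. With all 7 mice 1 of 97 pairs was lower and 1 higher in i4F (1.03% each, with 4.83% of all pairs called), and 3 of 70 were lower in caerulein (4.29%, with 6.86% of all pairs called). Over the 47 sums of a class in a mouse, Hsp90ab1, Hspa5 and Hspa8 had the highest mean levels of the 14 (4025, 1657 and 1469 CPM). A sum over the list therefore weighs these most, and less the stress-inducible Hspa1a (857 CPM) and Hspa1b (68.3 CPM). The summed level of all 14 in stellate cells lay between 9713 and 13592 CPM, at 12934 and 13592 CPM in WT, 10373, 9713 and 10613 CPM in i4F and 12476 and 11472 CPM in caerulein. In acinar cells it was higher in i4F 1, i4F 2 and both caerulein mice than in WT, at 6100 and 4415 CPM in WT, 10355, 9487 and 4971 CPM in i4F and 12747 and 12163 CPM in caerulein. The stress-inducible Hspa1a and Hspa1b did not follow this order in acinar cells. Together they stood at 143 and 187 CPM in WT, 143, 121 and 203 CPM in i4F and 86.0 and 290 CPM in caerulein. Without i4F 3, Dnaja1, an Hsp40 co-chaperone, was called lower in 4 of 7 classes in i4F and in 4 of 5 in caerulein. Dnajb1 was called lower in 4 of 7 and higher in 1, and Bag3 lower in 3 of 5, in i4F, and Dnajb4 lower in 3 of 5 in caerulein, with stellate log2 changes of -2.19, -0.71 and -1.36. The stress-inducible Hspa1a in stellate cells stood at 881 and 1671 CPM in WT, at 234, 208 and 749 CPM in i4F and at 109 and 568 CPM in caerulein. Both WT mice were the highest, as for most members, while caerulein 1 was the lowest of all. This order did not hold in each class, since endothelial Hspa1a stood higher in caerulein 2 (2089 CPM) than in WT 1 (1003 CPM), and NK/T Hspa1a higher in i4F 3 (3407 CPM) than in both WT mice (679 and 1288 CPM). The part of dissociation in these values was not tested.

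**Figure D5:**
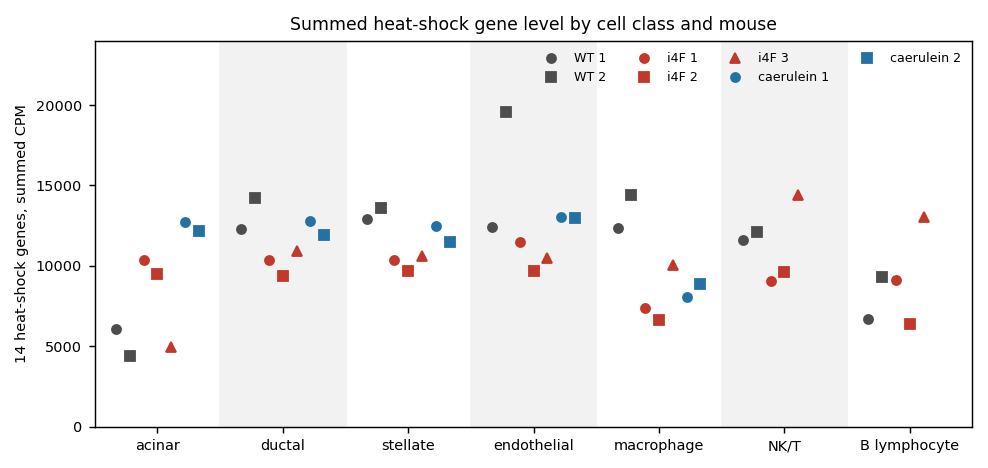
Summed level of 14 heat-shock genes (CPM of the class) in each cell class, 1 point per mouse with the same colours and shapes. In stellate cells the mice lie between 9713 and 13592 CPM, and in acinar cells the caerulein mice (12747 and 12163 CPM) lie above WT (6100 and 4415 CPM). The sum weighs Hsp90ab1, Hspa5 and Hspa8 most. Hspa1a and Hspa1b alone stood in stellate cells at 949 and 1779 CPM in WT, 259, 226 and 813 CPM in i4F and 117 and 599 CPM in caerulein.

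Over the 47 sums of a class in a mouse, the genes outside the list whose log level followed the mean of the members most closely, among 5941 compared, were Rhob (Pearson r = 0.868), Fmo2 (0.862), Gas6 (0.854), Arl13b (0.841) and Sult1a1 (0.833). Among the members themselves the correlation with the mean of the others ran from 0.889 for Fosb and 0.873 for Fos, through 0.811 for Egr1, to 0.575 for Junb and 0.559 for Ier3. The 47 points share mice, libraries and classes, so these values describe the libraries and carry no test.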

How the data were processed

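Pancreatic cells of 7 mice were profiled by droplet single-cell RNA-seq. The authors deposited 1 table per group, with UMI counts of every gene in every cell (Cell Ranger, mm10), together with the cell annotation, which also gives mitochondrial percent per cell. Per the authors' methods, cells with few genes or a high mitochondrial share had been removed, ambient RNA was treated with SoupX (whether before these counts is not given in the sources used here), and clusters were made and named in each group apart. All values were whole numbers, and 0 per-sample columns were left unmapped. Doublets were not called here.

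Here, UMIs were summed per mouse and class of named clusters (at least 20 cells), so that the mouse is the replicate. Sums were tested with edgeR 4.0.16 (quasi-likelihood, TMM, filterByExpr, 3 groups in 1 fit, two-sided, Benjamini-Hochberg over all genes of a class, threshold 0.05), with DESeq2 1.42.0 as an alternative. The scripts were tested on simulated counts. Nothing states that mice were handled on separate days, so p-values measure the spread between these mice. The members, the lists and the classes were chosen with earlier results of these data known. All 10 members were named whatever their values, genes of the other early and heat-shock lists where past the threshold in most classes plus up to 5 others, and for likeness the 5 closest genes with a mean of at least 20 CPM, on log2(CPM + 1). Dusp6, Hspa1a, Hspa1b and the clusters split out were picked after their values were seen. Depth per library is given with the samples. Replicate numbers did not pair the mice. Promoter windows end at the RefSeq start.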

Additional observations from a re-analysis of the deposited data

Results flagged for a closer look

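Differences between classes were tested for acinar cells against macrophages, where Egr1 in caerulein was the 1 call of 20. In caerulein against WT, the log2 change of Egr1 in acinar cells minus that in macrophages was 2.13 ± 0.46 (edgeR's quasi-likelihood test, adjusted p = 0.0225) in a joint fit of both classes. The separate fits gave -0.98 in acinar cells and -3.17 in macrophages. It kept its direction in each fit with 1 mouse left out (1.67 to 2.51) but passed the threshold only in those without an i4F mouse. Without the WT and i4F clusters led by dendritic cell markers it was 0.04. Of all genes, 6.68% were called for caerulein and 0.397% for i4F, and whether chance gave this 1 call was not tested.

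In other class pairs, members of the caerulein mice lay on opposite sides of both WT mice, and these differences were not tested. Both caerulein mice were above both WT mice for Ier3 in acinar, stellate and macrophage classes and below both in ductal and endothelial cells. From separate fits with all 7 mice, the log2 change of Ier3 in stellate cells exceeded that in ductal cells by 2.77 and that in endothelial cells by 3.25. The change in acinar cells exceeded these by 1.31 and 1.79, and the change in macrophages by 1.46 and 1.94. For Dusp1 both caerulein mice were above WT in acinar and below WT in stellate cells, with changes 1.28 apart.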

How the results depend on the processing

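The counts of members called depended on the settings. For i4F against WT the count of 2 of 70 became 16 with DESeq2, 7 without TMM, 30 without the filter on low counts, 1 with only those groups fitted and 43 with the replicate block, where 9.35%, 5.21%, 6.84%, 0.331% and 21.1% of all gene-by-class pairs were called. It ran from 0 to 43 with 1 mouse left out (all pairs, 0.0818% to 25.9%). For caerulein against WT the count of 3 of 50 became 11 with DESeq2, 28 without the filter, 29 with only those groups fitted, 27 with the replicate block, 34 with the block's caerulein numbers crossed and 0 with a library name series term, where 13.5%, 9.56%, 24.1%, 20.2%, 25.5% and 0.327% of all pairs were called. It ran from 0 to 33 with 1 mouse left out (0.0566% to 25.5%). For i4F against caerulein the count of 0 of 50 became 2 with DESeq2, 9 without the filter, 7 with the replicate block and 10 with it crossed (4.94%, 4.47%, 6.10% and 10.3% of all pairs), and ran from 0 to 10 (0.00% to 10.2%). Every highest count with 1 mouse left out was that without i4F 3. The replicate block takes i4F 3, the lone mouse numbered 3, out of the contrast by construction. Mice of the same number did not deviate together. The correlation of their deviations over all cells was -0.05 for WT and i4F, -0.37 for WT and caerulein and 0.04 for i4F and caerulein. For WT and caerulein it was also negative within classes, from -0.36 in stellate to -0.20 in acinar cells. There the block thus joins mice that deviated in opposite ways, and for the other pairs of groups it pairs nothing. The crossed block and the fits without the dendritic-marker clusters or with activated stellate clusters only were chosen after seeing the data. The count of class differences, 1, became 6 with DESeq2, 3 without TMM, 5 without the filter and 4 without the dendritic-marker clusters, where 6.10%, 0.00%, 4.49% and 9.59% of all genes were called in i4F and 9.64%, 6.79%, 5.82% and 10.9% in caerulein. It ran from 0 to 8 with 1 mouse left out (0.00% to 19.8% in i4F and 0.0434% to 19.0% in caerulein). The mean share of cells with a UMI of a member, 41.7% (SD 7.89, n = 7 mice), was 52.9% without thinning and 29.6% at 500 UMIs. The cause of these changes was not tested otherwise. Of single genes, with a series term stellate Jun in i4F turned to 0.49, endothelial Ier3 in i4F to 0.28 and acinar Dusp1 in caerulein to -0.32, and without TMM acinar Atf3 in caerulein turned to 0.21. With 1 mouse left out, ranges that crossed 0 were -1.90 to 0.52 for stellate Jun (i4F against WT), -2.21 to 0.023 for stellate Jun (caerulein against WT), -1.23 to 0.26 for endothelial Ier3 (i4F against WT), -0.27 to 1.34 for acinar Dusp1 (caerulein against WT) and -1.35 to 0.049 for stellate Fos (i4F against caerulein). Of the other single values, under the other settings, those chosen after seeing the data aside, 288 kept direction and side of the threshold, 98 gained significance and 5 lost it, and with 1 mouse left out 297, 44 and 27 did.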

Other observations

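Other classes, outside the comparisons above, had these summed levels of the 10 genes. Smooth muscle cells stood at 11007, 10397 and 27348 CPM in i4F and at 13491 and 12012 CPM in caerulein mice. Mesothelial cells stood at 17550 and 36504 CPM in WT and at 11107 and 15309 CPM in caerulein. Endocrine cells stood at 8109 and 7857 CPM in WT, at 5112, 9098 and 10115 CPM in i4F and at 5163 and 3435 CPM in caerulein. In smooth muscle and endocrine cells i4F 3 was the highest i4F mouse. These classes were not tested.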
